A study of Mus musculus with 4 samples.

Results

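Rbm3 and Cirbp are the 2 genes described here, out of 32285 in the files, and they were taken by name across cell classes and libraries. They were picked with their difference between the 2D and 0D libraries already known, so that difference is given below as a description with no test. The data are single-cell RNA counts from crypts of the mouse small intestine, where the stem cells of the gut lining sit. Crypts were loosened for 30 min at 4 °C with EDTA (10 mM) and passed through a 70 µm strainer, per the labels' protocols. By the design text, mice were sampled before sleep deprivation and after it. A pair of libraries is titled SD 0D (0D-1 with 0D-2) and a pair SD 2D (2D-1 with 2D-2), and the letter D is not explained. Where 4 values stand in a row, they follow that order. The sources used here do not give strain, age, sex or whether each library came from its own animal, so a p-value below reflects how these libraries spread, and that spread may be technical.

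Rbm3 and Cirbp encode small RNA-binding proteins, each with a single RNA recognition motif at its start and a glycine-rich tail. Both are known as cold-inducible: in cultured cells their messages rise when the temperature falls by a few degrees, and Cirbp is best known for following the daily rhythm of body temperature. The proteins bind many messages, act on their splicing, poly(A) site choice and translation, and have been studied mostly in brain, testis and cultured cells.

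After filtering, 29731 cells remained, 7025 to 7988 per library, with a median of 9248 to 13341 UMIs per cell. UMIs, unique molecular identifiers, count captured RNA molecules. Cells were placed in 7 classes by summed counts of marker genes, none of them Rbm3 or Cirbp. Each class held its own markers among its leading genes and no marker of another class. The gating on these markers largely fixed that in advance, so it is no independent check of the classes. The classes were stem-like (3129 cells), transit-amplifying-like (3159 dividing cells with no lineage marker), enterocyte-like (2406 absorptive cells), goblet-like (12440 mucus-secreting cells), Paneth-like (1344 antimicrobial cells), enteroendocrine-like (2188 hormone cells) and tuft-like (835 chemosensory cells). Of the stem-like cells, 2404 also passed the threshold for dividing genes. No lineage marker here means below the lineage and stem thresholds. Cells with several marker sets numbered 3036 and were left out of the classes. Any 2 libraries shared 13 to 16 cell barcodes. Immune markers summed to 52.6, 59.1, 7.89 and 81.3 CPM (CPM, a gene's share of all UMIs scaled to 1e6; 11 of 11 genes detected, but 10 of 11 in 2D-2, where Trac was at 0). Stroma and endothelium markers summed to 0.614 to 0.827 CPM, with Col1a2 and Dcn at 0 in every library.

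The kinship of the 2 genes can be read in their coding sequences, and it bears on whether their counts could be mixed up. Rbm3 (ENSMUSG00000031167) lies on the minus strand of chromosome X, 8138975 to 8145880 in GRCm38, with 11 annotated transcripts, 6 of them protein-coding. Cirbp (ENSMUSG00000045193) lies on the plus strand of chromosome 10, 80165985 to 80172786, with 7 annotated transcripts, 2 of them protein-coding and 4 with a retained intron. Their coding sequences run to 465 and 519 bases in the longest complete transcripts (GENCODE M21), and 73.3% of aligned coding bases were identical. The likest ungapped stretch of 60 bases, in frame, begins at coding base 196 in both and falls within the RNA recognition motif. It is printed 5′ to 3′ with the 48 identical bases (80%) in capitals.

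Rbm3: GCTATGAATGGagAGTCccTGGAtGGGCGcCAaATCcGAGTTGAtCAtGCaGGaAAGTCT
Cirbp: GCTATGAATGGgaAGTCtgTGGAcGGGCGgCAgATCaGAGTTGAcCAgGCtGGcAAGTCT

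The annotated transcripts of the 2 genes shared no run of 31 bases, so a read of that length that matches both perfectly was not found. A processed pseudogene, Rbm3-ps, shared 372 of its 435 different 31-base runs with Rbm3 transcripts. It is not among the genes counted in the files, and the sources used here do not say how reads matching both places were counted.

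A stretch upstream of Cirbp is shown because it holds the letters of the mild cold response element, TCCCCGCC, a motif described for the mouse Cirbp promoter. It spans chr10:80167589-80167777 on the plus strand of GRCm38.p6 (RefSeq window before the start site at 80167839), stops before the first annotated exon in that window, and lies within the first intron of a longer coding transcript. Capitals mark the motif.

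Cirbp upstream: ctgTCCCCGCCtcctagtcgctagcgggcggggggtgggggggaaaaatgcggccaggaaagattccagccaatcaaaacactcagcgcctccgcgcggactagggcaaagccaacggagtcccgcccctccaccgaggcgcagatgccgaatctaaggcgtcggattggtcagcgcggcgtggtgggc

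The motif begins 247 bases before the start site and was present on either strand in 5.38% of 32851 mouse promoter windows of the same length. A second Cirbp window in the table held no match. The full window that begins with the bases shown held no heat shock core (GAANNTTC, in 7.86% of windows), no E-box (CACGTG, in 7.15%) and no cAMP response element (TGACGTCA, in 1.79%), searched on both strands. It held 2 CCAAT boxes (CCAAT, in 37.4% of windows) and 3 GC boxes (GGGCGG, in 35.7%), none overlapping the first motif. A match says only that these letters are present. Rbm3 had no entry in the promoter table.

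Rbm3 was the more abundant message in each of the 7 classes. Its counts were 2.15 to 38.9 times those of Cirbp over the classes and libraries, with the lowest ratios in enteroendocrine-like and tuft-like cells. These ratios compare UMIs, which count molecules by their 3′ ends and need no correction for length.

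Rbm3 stood at 388 ± 142 CPM in stem-like and 367 ± 128 in transit-amplifying-like cells (SD, n = 4 libraries). Next came enteroendocrine-like cells at 266 ± 81.2, enterocyte-like cells at 252 ± 93.6, goblet-like cells at 240 ± 91.3 and tuft-like cells at 209 ± 67.0. Neighbours in this order differed by less than the larger of their SDs, which here include the difference between 0D and 2D. Library by library, transit-amplifying-like cells (257, 267, 420 and 522) still lay above enteroendocrine-like cells (175, 224, 314 and 352). In CPM without TMM, Paneth-like cells stood apart at 40.5 ± 18.9, with every library below every library of the other classes. Scaled by TMM, Paneth-like cells were not lowest. Their mean was then 196 CPM, against 137 for the tuft-like class and 160 for the enteroendocrine-like class.

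Cirbp had a different order. Enteroendocrine-like cells had 90.2 ± 7.36 CPM and tuft-like cells 73.0 ± 4.73. Stem-like cells followed at 26.5 ± 0.830, then transit-amplifying-like cells at 18.0 ± 2.22, goblet-like cells at 16.9 ± 0.916, enterocyte-like cells at 12.4 ± 3.32 and Paneth-like cells at 4.85 ± 0.291. The lowest enteroendocrine-like library (79.6) lay just above the highest tuft-like library (79.2). Transit-amplifying-like, goblet-like and enterocyte-like cells overlapped, and the other neighbours did not. Scaled by TMM, Paneth-like cells were not lowest, at 24.2 CPM against 20.4 in stem-like and 11.3 in enterocyte-like cells.

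**Figure D1:**
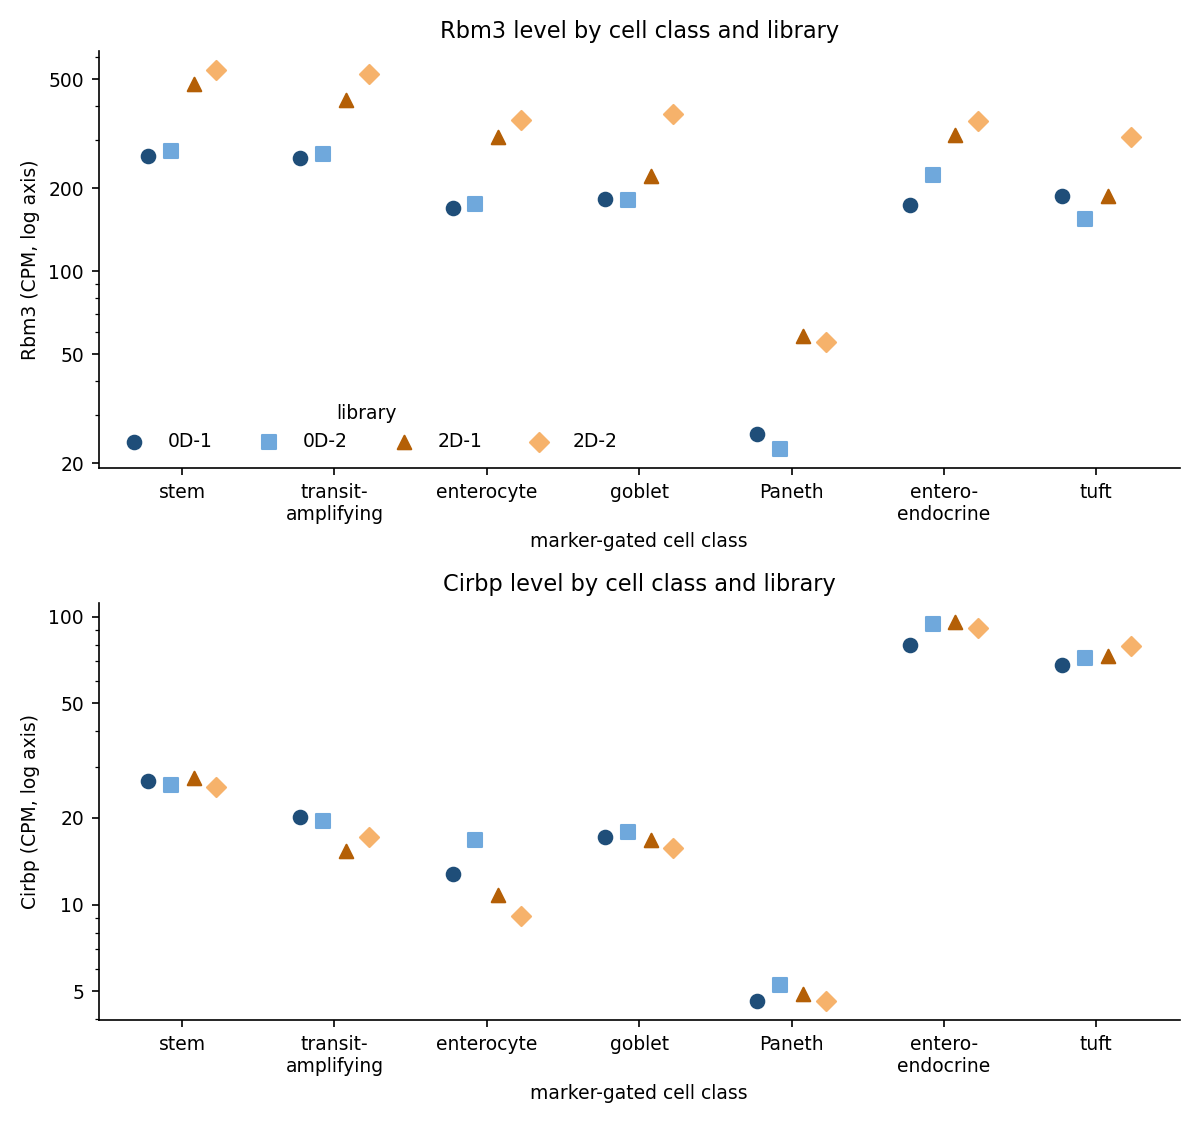
Level of Rbm3 (top) and Cirbp (bottom) in CPM on a log axis, by marker-gated class, 1 point per library. Both 2D points of Rbm3 lie above both 0D points in 6 of 7 classes. Cirbp is higher in every enteroendocrine-like and tuft-like library (67.8 to 95.8) than in any library of the other classes. On the log axis, its spread within a class is widest in enterocyte-like cells (9.10 to 16.8).

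Each class was then tested against the mean of the other 6 with edgeR's quasi-likelihood test, library as a block and Benjamini-Hochberg adjustment over 14263 genes. This test scales by TMM as well. Most genes differ between cell classes, so a call is common: 33.5% of genes were called higher in stem-like cells and 35.6% in transit-amplifying-like cells. Rbm3 was among them, by 0.56 ± 0.08 on the log2 scale in stem-like (SE; adjusted p = 3.10e-07) and 0.58 ± 0.08 in transit-amplifying-like cells (adjusted p = 1.98e-07). Both calls held under all 15 settings fitted, with the largest adjusted p at 3.99e-05 and 0.000143. Enterocyte-like (0.13, adjusted p = 0.193) and goblet-like cells (0.04, adjusted p = 0.692) did not pass, against 33.6% and 30.7% of genes called higher there. Goblet-like cells stood at -0.03 without 2D-2 and passed at 0.18 without 2D-1.

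The direction of Rbm3 in enteroendocrine-like and tuft-like cells depended on the scaling. In Paneth-like cells its size did, and the sign stayed below 0. The TMM factors were 0.181 to 0.233 in Paneth-like cells against 1.65 to 1.68 in enteroendocrine-like cells. With TMM, Rbm3 was at -0.14 in Paneth-like cells (adjusted p = 0.221; 26.5% of genes called lower), at -0.46 ± 0.09 in enteroendocrine-like (adjusted p = 4.61e-05; 34.9%) and at -0.71 ± 0.11 in tuft-like cells (adjusted p = 1.32e-06; 26.8%). With plain library totals, a setting chosen after seeing the data, Rbm3 was at -2.82, 0.40 and 0.0047 in the same classes, but the median of all genes itself moved to -2.69, 0.87 and 0.58. Rbm3 lay below that median in all 3 classes.

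Cirbp was higher in enteroendocrine-like cells by 1.46 ± 0.07 on the log2 scale (adjusted p = 1.00e-18; 38.0% of genes called higher) and in tuft-like cells by 1.24 ± 0.12 (adjusted p = 1.17e-10; 22.1%). Both differences kept their sign and call under every setting, including plain totals (2.32 and 1.96). Cirbp was lower in enterocyte-like cells by -1.13 ± 0.09 (adjusted p = 1.09e-13; 36.2% of genes called lower), in transit-amplifying-like cells by -0.75 ± 0.08 (adjusted p = 1.36e-10; 29.7%) and in goblet-like cells by -0.70 ± 0.07 (adjusted p = 9.42e-11; 32.4%), again under every setting. Stem-like cells were lower by -0.20 ± 0.07 with TMM (adjusted p = 0.0177; 32.4%), but at 0.24 with plain totals, and it no longer passed when 0D-2 or 2D-2 was left out. Paneth-like cells did not pass (0.07, adjusted p = 0.629; 26.7% of genes called higher) and stood at -2.61 with plain totals.

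**Figure D2:**
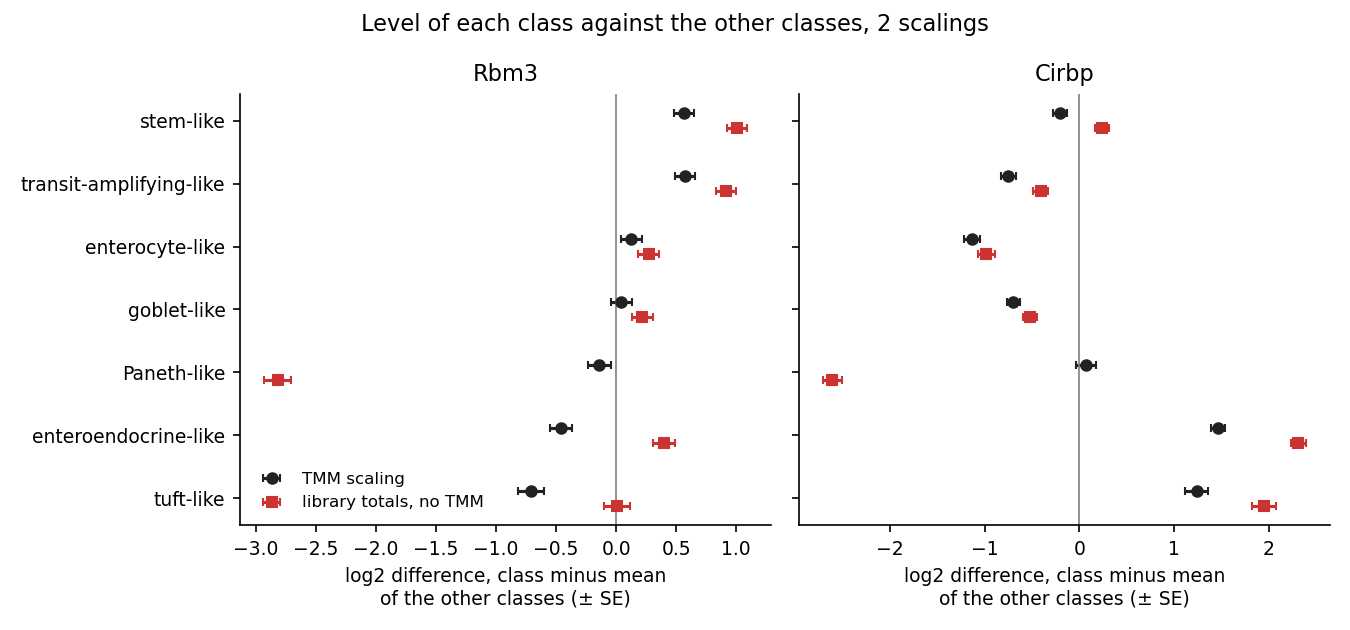
Difference of each class from the mean of the other 6, log2 scale, with SE bars, for Rbm3 (left) and Cirbp (right). Black points use TMM scaling and red points plain library totals; Rbm3 is above 0 on both in stem-like and transit-amplifying-like cells and changes sign in enteroendocrine-like and tuft-like cells, while Cirbp is above 0 on both in enteroendocrine-like and tuft-like cells and changes sign in stem-like and Paneth-like cells.

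Between the libraries, Rbm3 was higher in 2D. Stem-like cells had 261 and 274 CPM in the 0D pair against 478 and 541 in the 2D pair. Transit-amplifying-like cells had 257 and 267 against 420 and 522. The 0D libraries lay close together and the 2D libraries further apart, with no overlap. Enterocyte-like cells, which carry nutrient uptake, had 169 and 175 CPM in 0D and 308 and 354 in 2D. Enteroendocrine-like cells had 175 and 224 against 314 and 352, and Paneth-like cells 25.6 and 22.6 against 58.2 and 55.3. In these 5 classes both 2D libraries lay well above both 0D libraries.

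Goblet-like and tuft-like cells were less even. Goblet-like cells had 183 and 182 CPM in 0D, 222 in 2D-1 and 374 in 2D-2. Thus the 2D libraries differed from each other by more than 2D-1 did from 0D. Tuft-like cells had 188 and 155 CPM in 0D and 187 and 307 in 2D, and the groups overlapped. The 2D libraries were thus apart from 0D in 6 of 7 classes by CPM and in 5 of 7 by UMIs per cell, where goblet-like cells also overlapped. Over all genes tested, 19.6% to 33.1% lay apart upward in CPM in those 6 classes (stem-like cells 26.5%, transit-amplifying-like cells 19.6%, enterocyte-like cells 21.4%, goblet-like cells 27.4%, Paneth-like cells 33.1% and enteroendocrine-like cells 20.2%), and nothing is read from the count, because the genes were chosen on this contrast.

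The fitted differences, 2D minus 0D on the log2 scale with SE, were 0.90 ± 0.09 for stem-like and 0.85 ± 0.11 for transit-amplifying-like cells. Enterocyte-like cells had 0.95 ± 0.10, Paneth-like cells 1.04 ± 0.14 and enteroendocrine-like cells 0.72 ± 0.12. They were 0.65 ± 0.30 in goblet-like and 0.52 ± 0.23 in tuft-like cells, where the SE is wider. The value stayed above 0 in each class under the 13 settings fitted. Without 2D-2 it came to 0.08 in goblet-like and 0.13 in tuft-like cells, and without 2D-1 to 1.06 and 0.81. Summed over all cells, Rbm3 stood at 189, 190.5, 269 and 313 CPM, a difference of 0.74 ± 0.15, with the groups apart like 16.3% of genes tested. That sum mixes classes whose shares moved: stem-like cells made up 15.9%, 12.5%, 7.62% and 6.15% of the 4 libraries.

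Cirbp values differed in pattern from those of Rbm3. Over all cells it stood at 19.1, 20.7, 18.5 and 17.8 CPM, a difference of -0.01 ± 0.09 after TMM scaling, with both 2D libraries below both 0D libraries in CPM like 38.2% of genes tested. In stem-like cells the 4 libraries had 26.8, 26.1, 27.6 and 25.7 CPM (-0.02 ± 0.10), and in enteroendocrine-like cells 79.6, 94.4, 95.8 and 91.0 (0.08 ± 0.11). Both classes overlapped between groups, where 17.2% and 16.1% of genes lay apart downward. Transit-amplifying-like cells had 20.1 and 19.6 CPM in 0D and 15.3 and 17.1 in 2D (-0.30 ± 0.12). Enterocyte-like cells had 12.8 and 16.8 against 10.8 and 9.10 (-0.54 ± 0.18), and goblet-like cells 17.1 and 17.9 against 16.8 and 15.7 (-0.20 ± 0.13). In these 3 classes both 2D libraries lay below both 0D libraries, as 21.9%, 24.4% and 17.0% of all genes tested did there. Tuft-like cells had 67.8 and 72.0 CPM in 0D and 73.1 and 79.2 in 2D (0.10 ± 0.21), apart upward like 22.1% of genes. By UMIs per cell they lay the other way, at 0.308 and 0.347 in 0D and 0.23 and 0.279 in 2D. Paneth-like cells, with 48 to 88 Cirbp UMIs per library, overlapped (-0.26 ± 0.22; 5.64% of genes lay apart downward there).

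As shares of cells, Rbm3 was examined after thinning each cell to 2000 UMIs, which removed depth differences and left out 244, 331, 323 and 627 shallower cells. In stem-like cells 41.3%, 38.7%, 60.9% and 61.2% of thinned cells had an Rbm3 UMI. Before thinning, the shares were 90.9%, 92.5%, 98.1% and 95.9%, near the ceiling at their depth. Cells with 2 or more Rbm3 UMIs after thinning made up 9.40%, 8.69%, 25.9% and 30.3%. Enterocyte-like cells had 27.9%, 28.1%, 41.1% and 48.2% with at least 1 UMI. In goblet-like cells the thinned shares were 29.5%, 28.1%, 27.9% and 46.8%, and the level was 181, 172, 176 and 350 CPM, so that 2D-1 stood with the 0D libraries and 2D-2 alone stood above them. Paneth-like cells had the lowest thinned shares, 6.53% to 10.4%. A thinned share, like CPM, is relative to all other RNA of the cell. Unthinned, they had 53.2% to 75.7% at a median of 31112 to 49484 UMIs, above the 33.0% to 42.8% of tuft-like cells. No class here is known to lack Rbm3, so a background from free RNA was not measured and its part was not tested.

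**Figure D3:**
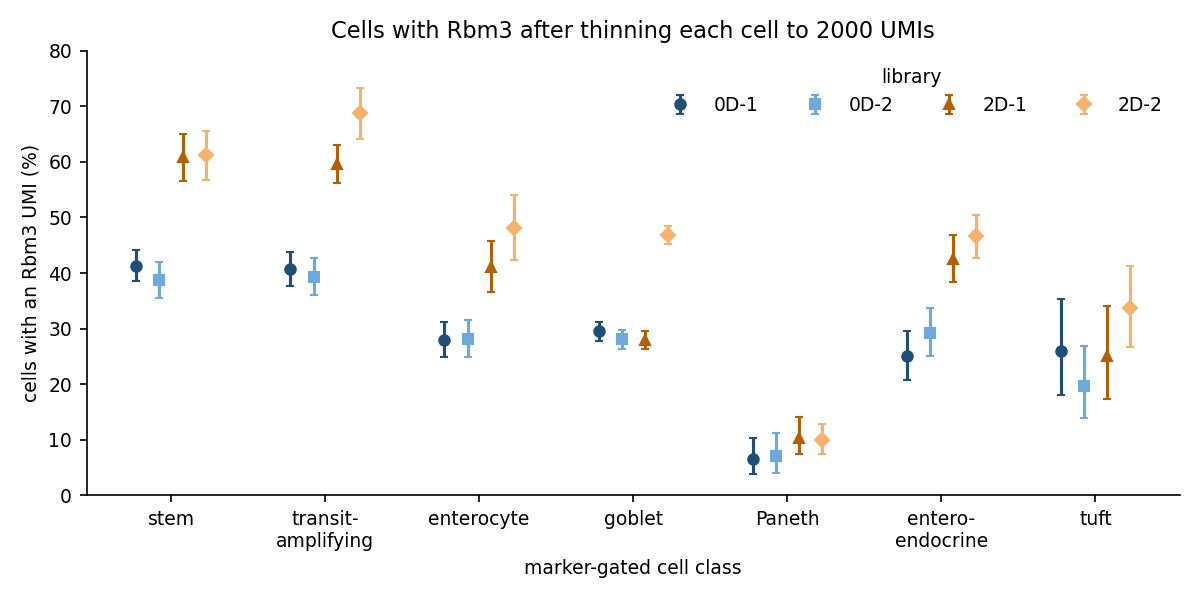
Share of cells with at least 1 Rbm3 UMI after thinning each cell to 2000 UMIs, by class, 1 point per library, with 95% exact binomial intervals that cover counting error only. In goblet-like cells 2D-2 (46.8%) stands above the other 3 libraries (27.9% to 29.5%), while in stem-like cells both 2D libraries (60.9% and 61.2%) stand above both 0D libraries.

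The Rbm3 level of goblet-like cells differed by the mitochondrial share of the cell, whose part in the difference between 2D-1 and 2D-2 was not tested. The median mitochondrial share of goblet-like cells was 3.72%, 3.43%, 8.64% and 3.84%, and their median UMIs were 11044, 12783, 7323 and 9322, so 2D-1 was highest in the first and lowest in the second. In goblet-like cells with 10 to 20% mitochondrial UMIs, Rbm3 was at 133, 149, 136 and 226 CPM. In those with 2 to 5%, it was at 184, 182, 275 and 388 CPM. Of the 2997 goblet-like cells of 2D-1, 1247 fell in the upper band, against 171 to 306 in the other libraries. Within the 2 to 5% band both 2D libraries lay above both 0D libraries. With a maximum of 10% mitochondrial UMIs the goblet-like difference was 0.71 ± 0.25, against 0.65 ± 0.30 with the maximum of 20%.

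No difference with cell division passed the test. Among cells with no lineage marker, dividing and non-dividing cells differed in Rbm3 by 0.01 ± 0.04 on the log2 scale (adjusted p = 0.903; 26.5% of genes called higher) and within the stem gate by -0.07 ± 0.05 (adjusted p = 0.414; 11.3% called lower). For Cirbp the values were 0.08 ± 0.12 (adjusted p = 0.600) and 0.04 ± 0.12 (adjusted p = 0.850; 12.4% called higher). These come from edgeR's quasi-likelihood test over all genes. Goblet-like cells, where division was not tested, looked different: Rbm3 stood at 249, 252, 338 and 498 CPM in dividing and at 157, 158, 181 and 338 CPM in non-dividing goblet-like cells. Dividing cells were higher in each of the 4 libraries. Enterocyte-like cells had 203, 203, 348 and 423 CPM when dividing and 161, 169, 297 and 341 when not.

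**Figure D4:**
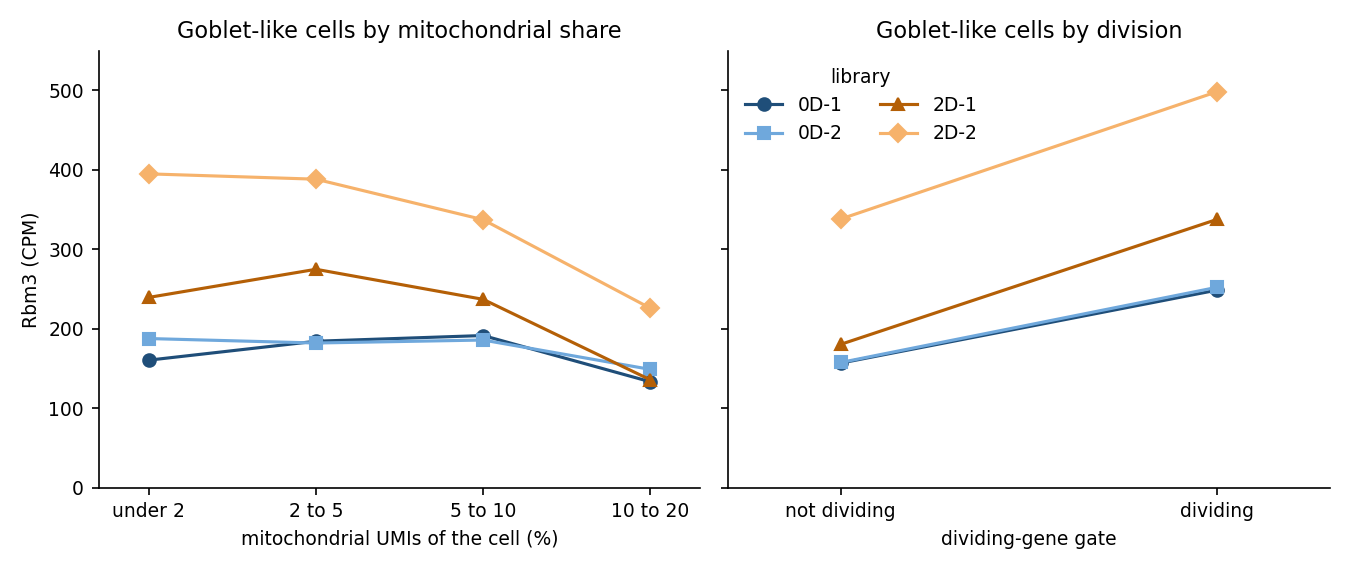
Rbm3 in goblet-like cells, in CPM from 0, by the cell's mitochondrial share (left) and by the dividing gate (right), 1 line per library. Rbm3 falls in the 10 to 20% band in each library, where 2D-1 (136) lies between the 0D libraries (133 and 149), and is higher in dividing cells in each library.

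Among enteroendocrine-like cells with Chga, the 2 genes differed with the presence of Neurog3. Neurog3 marks endocrine progenitors and Chga, a granin of hormone granules, the more mature cells. Cells with both had Rbm3 at 237, 309, 388 and 400 CPM, and cells with Chga alone at 141, 156, 271 and 302. Cirbp was at 102, 105, 132 and 126 CPM in cells with both and at 72.0, 90.6, 83.3 and 76.1 in cells with Chga alone. Both genes were thus higher in the cells with both markers in each library. For Rbm3 the 2D libraries were above the 0D libraries in either set. Cells with Neurog3 alone are not given here, and the depth of the sets is not compared. Dividing enteroendocrine-like cells, counted where a library held at least 20, numbered 28 in 0D-1 and 23 in 2D-1. They had Cirbp at 32.6 CPM in 0D-1 and 40.1 in 2D-1, below the 90.5 and 104 of the non-dividing ones. With so few cells these values are rough.

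Single cells showed almost no relation between the 2 messages. Pearson's r of thinned counts lay between -0.08 and 0.17 over the 7 classes and 4 libraries, in cells that share a library and have few Cirbp UMIs. Over the 28 sums of a class in a library, Rbm3 and Cirbp had r = -0.57, and -0.47 after each class's mean was subtracted. After the group means within classes were subtracted too, which leaves only the difference between the 2 libraries of a group, r was 0.30. These are descriptions over sums that share libraries and totals.

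The genes whose levels most resembled Rbm3 over the sums, among 5106 with at least 20 CPM on average, were Farsa (r = 0.84), a phenylalanyl-tRNA synthetase subunit, Mak16 (0.81), a ribosome assembly factor, Zfp207 (0.78), Sdad1 (0.75) and Sept11 (0.75), a septin. Once class means were subtracted, the 5 highest were Dnaja1 (r = 0.92), Hsph1 (0.91), Hspa8 (0.89), Mak16 again (0.88) and Hspa5 (0.88). Dnaja1, Hsph1 and Hspa8 belong to the heat shock chaperones, and Hspa5 is a chaperone of the endoplasmic reticulum. All these sums share the 0D and 2D libraries. With group means subtracted as well, r over the 14 library pairs was 0.80 for Dnaja1, 0.74 for Mak16, 0.73 for Hsph1, 0.67 for Hspa8 and 0.57 for Hspa5. For the other genes of the first list it was 0.74 for Sept11, 0.70 for Farsa, 0.41 for Sdad1 and -0.04 for Zfp207.

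Hsph1 is a partner of Hsp70. In stem-like cells it stood at 110 and 98.5 CPM in 0D and 138 and 263 in 2D, and in goblet-like cells at 32.3 and 26.9 against 52.2 and 88.4. Its level minus the class mean ran from -0.83 to -0.28 in the 0D libraries, from -0.09 to 0.29 in 2D-1 and from 0.80 to 1.05 in 2D-2 on the log2 scale. Rbm3 ran from -0.55 to -0.06 in 0D, from -0.20 to 0.45 in 2D-1 and from 0.45 to 0.76 in 2D-2. On this scale both genes were highest in 2D-2 in each class. In goblet-like and tuft-like cells 2D-1 lay nearer to the 0D libraries for Rbm3 (-0.20 and -0.17), and in the other classes nearer to 2D-2. Hsph1 differed in this: in stem-like cells its 2D-1 value (-0.06) lay nearer to the 0D libraries (-0.32 and -0.50). In enterocyte-like cells its 2D-1 value (0.29) lay nearer to 2D-2 (0.88).

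**Figure D5:**
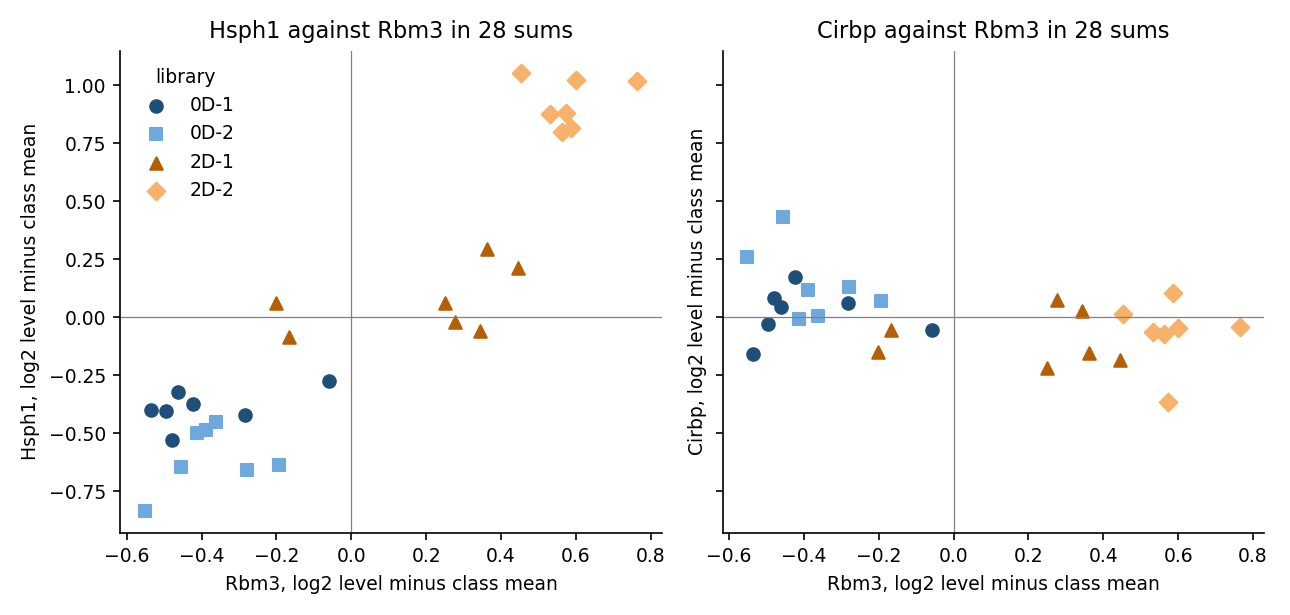
Level minus the class mean, log2 scale, of Hsph1 (left) and Cirbp (right) against Rbm3, 1 point per class and library. Hsph1 rises from the 0D libraries (-0.83 to -0.28) through 2D-1 to 2D-2 (0.80 to 1.05). Rbm3 is also highest in 2D-2, but in tuft-like cells its 2D-1 value (-0.17) lies below 0D-1 (-0.06). Cirbp shows no such order.

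Cirbp most resembled Zbtb20 (r = 0.96), a zinc finger transcription factor, Ddx5 (0.95), an RNA helicase, Tead1 (0.94), a partner of Yap1, Zmym2 (0.94) and Igsf8 (0.94). Zbtb20 was likewise highest in hormone and tuft cells. It stood at 271 to 311 CPM in enteroendocrine-like and 178 to 220 in tuft-like cells, against 10.6 to 46.7 in the stem-like, dividing, absorptive and goblet-like classes. With class means subtracted the likest genes had lower values, 0.66 to 0.70 (2510002D24Rik, Uqcc3, Ptms, Vbp1 and Rab24).

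The wider gene lists are given by counts and medians of the 2D minus 0D difference. Over all cells, no gene of 15454 passed in edgeR's quasi-likelihood test (0% called in either direction; 3132 at an unadjusted p under 0.05, and 707 passing with DESeq2), and the median of all genes was 0.01. Of 14 heat shock chaperones and regulators, 10 lay above 0 with a median of 0.48, Hsph1 at 0.84 ± 0.22 (adjusted p = 0.173) and Dnaja1 at 0.66 ± 0.19 (adjusted p = 0.182). Their median lay between 0.31 and 0.56 in the 7 classes. Few genes were called within a class. The share called higher and lower was 0.0336% and 0.0252% for stem-like cells, 0.109% and 0.0168% for transit-amplifying-like cells, 0.303% and 0.0356% for enterocyte-like cells, 0.176% and 0.0615% for enteroendocrine-like cells, 0.141% and 0.0771% for tuft-like cells, and 0% for goblet-like and Paneth-like cells. Hsph1 in enterocyte-like cells was the only list member called in any class. It rose from 62.1 and 58.2 to 112 and 167 CPM (1.21 ± 0.18, adjusted p = 0.0486), and without 0D-1 no gene passed there.

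Regulators of splicing known to respond to temperature, SR proteins and their CLK kinases, had 8 of 14 above 0 and a median of 0.02 over all cells. By class, 8 to 11 of 14 lay above 0. The class medians were small and above 0, from 0.03 in transit-amplifying-like to 0.15 in goblet-like cells. Srsf5 had the smallest p of that list in each class: over all cells it stood at 191, 213, 143 and 118 CPM (-0.52 ± 0.09, adjusted p = 0.151). The hnRNP genes, which package nuclear RNA, had 1 of 14 above 0 and a median of -0.12, with Hnrnpa1 at -0.37 ± 0.11 (adjusted p = 0.191) and Hnrnpc at -0.25 ± 0.08 (adjusted p = 0.206). In stem-like cells 9 of 14 hnRNP genes lay above 0, so the direction was not shared between classes. Of 5 other genes of the RBM family, 1 lay above 0, with Rbmx at -0.32 ± 0.12 (adjusted p = 0.225) and Rbm4 at 0.20 ± 0.08 (adjusted p = 0.236).

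Of the 15 clock genes tested, 12 lay above 0 with a median of 0.17, and the nuclear receptors Nr1d2 (0.85 ± 0.16, adjusted p = 0.151) and Nr1d1 (1.01 ± 0.24, adjusted p = 0.166) had the smallest p. The classes differed in direction: the clock median was 0.17 in goblet-like cells (12 of 14 above 0), 0.16 in enteroendocrine-like cells (11 of 13) and 0.13 in enterocyte-like cells (8 of 13), but -0.19 in transit-amplifying-like cells (6 of 14) and -0.21 in Paneth-like cells (3 of 10). Stem-like cells had 7 of 13 above 0 and tuft-like cells 2 of 4. All 12 immediate early genes, which respond to handling and stress, lay above 0 over all cells with a median of 0.37. In CPM without TMM their sum was 2922, 3040, 2523 and 4445, so 2D-1 lay below both 0D libraries. These sums mix classes whose shares moved: goblet-like cells, at 6343 to 8265 CPM, made up 36.3%, 39.4%, 42.7% and 48.5% of the libraries. By class, 12 of 12 lay above 0 in enteroendocrine-like cells (median 0.17) and 9 of 11 in tuft-like cells (0.45), and 7 of 12 did in goblet-like cells (0.03) and 6 of 12 in transit-amplifying-like cells (-0.03). Enterocyte-like cells had 3 of 12 above 0 (-0.24), Paneth-like cells 2 of 12 (-0.27) and stem-like cells 1 of 12 (-0.66). The part of handling in the Rbm3 difference was not tested. Socs3 (0.81 ± 0.12, adjusted p = 0.151) and Fosb (0.55 ± 0.21, adjusted p = 0.239) led that list. Of 6 tested genes reported as partners or targets of the 2 proteins, 3 lay above 0 with a median of -0.01, and Txn1, thioredoxin, was at -0.34 ± 0.11 (adjusted p = 0.208).

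No chromosome neighbour passed the test over all cells, where 0% of the 15454 genes did, so nothing is read from that about the neighbours. Wdr13, next to Rbm3, stood at 13.4, 14.3, 16.1 and 14.2 CPM (0.24 ± 0.08, adjusted p = 0.216), and Tbc1d25 on the other side at 1.76 to 2.03 CPM (0.04 ± 0.14, adjusted p = 0.907). Rbm3os, annotated antisense over the Rbm3 start, had 39 to 53 UMIs per library (0.362 to 0.478 CPM), and the sources used here do not say whether the counting used strand. Gm6787 had 9 to 16 UMIs. Around Cirbp, Atp5d (-0.22 ± 0.10, adjusted p = 0.295), Midn (0.17 ± 0.08, adjusted p = 0.312) and 1600002K03Rik (-0.18 ± 0.11, adjusted p = 0.400) did not pass. Efna2, an ephrin, stood at 0.897 and 1.13 CPM in 0D and 2.45 and 2.43 in 2D (1.38 ± 0.18, adjusted p = 0.151) and did not pass either. These adjusted p-values are from edgeR's quasi-likelihood test over all cells.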

How the data were processed

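Each of the 4 libraries has a deposited matrix of raw counts, whole UMIs per gene and cell barcode, made with a 10x 3′ kit of version 2 per the labels' protocols. Counting was by Cell Ranger 2.1.1 on mm10 per the submitters' processing notes and by cellranger 7.0.0 per the file headers. The authors' annotation and their treatment of introns are not stated, and 32158 of 32285 gene IDs matched GENCODE M21. A cell was kept from 500 detected genes and up to 20% mitochondrial UMIs (scanpy 1.11.5). Classes were gated on summed marker UMIs per 10000, at 15 for stem, 40 for enterocyte, 200 for goblet, 1000 for Paneth, 20 for enteroendocrine, 10 for tuft and 10 for dividing genes. Doublets were scored with Scrublet in scanpy and kept, and leaving out scores above 0.25 was an alternative. UMIs were summed per library and class. edgeR 4.0.16 with filterByExpr, TMM and the quasi-likelihood test was used on all genes, with Benjamini-Hochberg adjustment at 0.05, and DESeq2 1.42.0 as an alternative. Tests were tried on simulated data. Intervals are 95% exact binomial (Clopper-Pearson). Likeness is Pearson's r of log2(TMM-scaled CPM + 1). Total UMIs of kept cells were 93090534 to 113758758 per library. For the named genes, the rule was the 2 members, the 5 genes most like each on 2 measures, list members past the threshold or else the 2 with the smallest p, and 2 chromosome neighbours on each side. Replicate numbers 1 and 2 come from the titles, which tie no number to an animal or day, so they were not taken as pairs. Settings chosen after seeing the data were library totals without TMM and marker UMIs left out of the totals. The members and the gene lists were chosen with earlier results of these data known.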

Additional observations from a re-analysis of the deposited data

Results flagged for a closer look

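Cirbp in CPM lay on opposite sides of 0 in different classes under the same contrast. In CPM, the log2 ratio of 2D over 0D was -0.29 for transit-amplifying-like cells, -0.57 for enterocyte-like cells and -0.11 for goblet-like cells, with both 2D libraries below both 0D libraries, and 0.12 in tuft-like cells, with both above. By UMIs per cell, where depth is not removed, the tuft-like ratio was -0.36, with both 2D libraries below both 0D libraries. The difference between the classes was not tested, and the tuft-like value rests on 241 Cirbp UMIs.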

How the results depend on the processing

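With 2 libraries a group, a single library sets much of the spread, and Cirbp had 48 to 88 UMIs per library in Paneth-like cells. Rbm3 stayed higher in stem-like and transit-amplifying-like cells, and Cirbp stayed higher among enteroendocrine-like and tuft-like cells and lower among enterocyte-like, goblet-like and transit-amplifying-like cells, under the 15 settings fitted. The cause of the changes below was not tested. With library totals without TMM, chosen after seeing the data, the log2 difference of a class from the others was 0.24 for Cirbp in stem-like and -2.61 in Paneth-like cells, and for Rbm3 0.27 in enterocyte-like, 0.22 in goblet-like, -2.82 in Paneth-like, 0.40 for enteroendocrine-like and 0.0047 for tuft-like cells. With the 0D libraries alone, Rbm3 was at 0.16 in goblet-like and -0.32 in Paneth-like cells. With the 2D libraries alone, Rbm3 was at -0.074 in goblet-like and Cirbp at -0.069 in stem-like cells. With no low-count filter, Cirbp in stem-like cells was at -0.16 (adjusted p = 0.079), and with thinned cells at -0.17. Thinned Cirbp in Paneth-like cells was at -0.13. With at most 10% mitochondrial UMIs, Rbm3 in Paneth-like cells was at -0.22 and passed. Leaving out 1 library in turn gave -0.26 to -0.14 for Cirbp in stem-like, -0.027 to 0.18 for Rbm3 in goblet-like and -0.23 to -0.078 for Rbm3 in Paneth-like cells. Dividing against non-dividing cells then gave -0.064 to 0.17 for Cirbp and -0.018 to 0.032 for Rbm3 with no lineage gate, and -0.020 to 0.16 for Cirbp in the stem gate.

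For the difference of 2D from 0D on the log2 scale, thinned cells gave 0.62 for Rbm3 in all cells and 0.52 in Paneth-like cells, and -1.10 and -0.31 for Cirbp in enterocyte-like and goblet-like cells. Cirbp in Paneth-like cells had no value there because it did not pass the low-count filter. Marker thresholds raised 1.5 times gave -0.21 for Cirbp in transit-amplifying-like cells. Leaving out 1 library in turn gave, for Rbm3, 0.52 to 0.93 in all cells, 0.79 to 0.99 in stem-like, 0.68 to 1.01 in transit-amplifying-like, 0.84 to 1.06 in enterocyte-like, 0.08 to 1.06 in goblet-like and 0.13 to 0.81 in tuft-like cells. For Cirbp it gave -0.082 to 0.046 in all cells, -0.37 to -0.20 in transit-amplifying-like, -0.27 to -0.14 in goblet-like and -0.43 to -0.071 in Paneth-like cells.

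The number of genes called between 2D and 0D moved most. In the order all cells, stem-like, transit-amplifying-like, enterocyte-like, goblet-like, Paneth-like, enteroendocrine-like and tuft-like, edgeR called 0, 7, 15, 38, 0, 0, 27 and 17 genes. DESeq2 called 707, 71, 79, 111, 60, 5, 20 and 12. No low-count filter gave 0, 475, 559, 681, 282, 128, 208 and 88. At most 10% mitochondrial UMIs gave 0, 5, 26, 47, 0, 0, 29 and 17. Raised marker thresholds gave 0, 7, 24, 41, 0, 2, 30 and 6. Doublet scores above 0.25 left out gave 0, 10, 8, 24, 0, 4, 30 and 11. Leaving out 1 library in turn gave 0 to 4045, 3 to 836, 0 to 1264, 0 to 1525, 59 to 5435, 0 to 60, 107 to 192 and 28 to 383. The highest count came without 2D-1 in all cells and enteroendocrine-like cells and without 2D-2 in the other classes.

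With the replicate number as a block, the pairing fit called 0, 2, 42, 111, 203, 27, 126 and 65 genes in the same order. Rbm3 in goblet-like cells stood at 0.57 under this replicate block, and the block moved no other value of Rbm3 or Cirbp by more. The differences between replicates 1 and 2 of 0D and of 2D had r = 0.065 over 15454 genes. A shared animal or day need not show in this value, so it does not settle whether the libraries are paired.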
